A study of Drosophila melanogaster with 2 samples.

Results

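The genes of the mesoderm and muscle programme followed here in a map of Trachealess (Trh) binding were twi, tin and bap, Mef2, nau and lmd, kirre and sns, and sls and Mhc. They were chosen by name, as 10 of the 13945 protein-coding genes of the annotation, by a rule that uses no measured value, although earlier results of these data were known when it was made. The map came from ChIP-seq of whole Drosophila melanogaster embryos of mixed sex, 0 to 24 h old, of a stable transgenic line that expresses Trh with GFP at its C terminus, precipitated with an antibody against GFP. All material was of this 1 genotype, and the labels name no treatment; it came in 2 biological replicates that carry the numbers 1 and 3. A tagged transgene in whole animals is the limit of the model: muscle and its precursors are one part of the chromatin, and binding in fewer cells cannot be told apart from weaker binding per cell.

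Mesoderm formation in the fly starts with Twist, a bHLH activator. Tinman, an NK homeodomain factor that Twist turns on, specifies heart and visceral muscle, and Bagpipe, a related factor, acts in visceral mesoderm. Mef2, a MADS-box factor, drives muscle differentiation, with Nautilus, the fly MyoD, in some founder cells and Lame duck, a zinc finger factor, in fusion-competent myoblasts. Kirre on founder cells and Sns on fusion-competent myoblasts are immunoglobulin-type adhesion proteins that join the cells before they fuse. Sallimus, the fly titin, and Mhc, the muscle myosin heavy chain, are parts of the sarcomere. Trh itself, a bHLH-PAS factor that binds DNA with its partner Tango, is known from epithelia, above all the tracheae and salivary ducts.

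Of the 10 genes, 4 held a peak in the list that the authors cut by irreproducible discovery rate (IDR), placed within their span or 2000 bp on either side: tin, Mef2, kirre and sls. Over all protein-coding genes the share was 22.4%. The same 4 genes had a peak when each summit was given to the nearest protein-coding transcription start site (TSS), against 13.3% of all genes. Span differed widely among the members, and among the 6 with 20 kb or more, 3 held a peak (Mef2, kirre and sls), against 41.6% of all genes of that length. Among the 4 shorter genes tin alone held one, against 20.9%. The count by nearest TSS was not divided by length, so its share does not allow for long genes with many TSSs. The 14 peaks in the members' windows came to 19.6 per Mb, against 17.3 per Mb over the chromosome arms. The kirre window made up 398 of the 714 kb counted. By gene the density ran from 0 at those without a peak to 143.0 per Mb at tin. The members' counts are a description of 1 peak list, and no test was made of them.

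The 14 peaks were unevenly spread. The kirre window held 8, that of Mef2 4, and those of tin and sls 1 each, so that 12 of the 14 lay at kirre or Mef2. For 8 of the 14 the nearest coding TSS was the member's own, and for 6 it was a neighbour's. Only 2 lay within 500 bp of a member's own TSS, those of tin and sls, and 4 lay within 500 bp of a neighbour's. Together 6 of the 14 were within 500 bp of a coding TSS, against 52.3% of all 2322 peaks past IDR. By nearest TSS within 500 bp, 2 of the 10 genes had a peak, against 8.45% of all genes.

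The sequences that carry these peaks were read as 101 bases centred on the summit, on the plus strand of dm6. The promoter peaks of tin and sls are shown because they are the only ones at a member's own start. Those of kirre are examples only: the window of its strongest peak, with its summit at 2786779, is not shown and holds no searched sequence. That of Mhc stands for a start site with a peak below the threshold. The letters are those of the RefSeq release 6 genome. Capitals mark matches, on either strand, to one of the searched sequences, which at tin are CATATG and TATAAA, at the kirre intron within CG32795 the MEF2 site, and at the Syx4 promoter ACGTG. The other 3 windows hold none of them.
tin promoter, chr3R:21378734-21378834: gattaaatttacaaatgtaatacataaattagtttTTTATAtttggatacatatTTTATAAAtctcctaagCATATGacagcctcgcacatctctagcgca
sls promoter, chr3L:2115824-2115924: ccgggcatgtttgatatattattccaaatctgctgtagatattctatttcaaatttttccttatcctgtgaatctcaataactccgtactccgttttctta
kirre intron, own TSS nearest, chrX:3097163-3097263: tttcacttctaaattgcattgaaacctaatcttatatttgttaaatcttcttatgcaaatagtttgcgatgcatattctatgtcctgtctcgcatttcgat
kirre intron within CG32795, chrX:2787442-2787542: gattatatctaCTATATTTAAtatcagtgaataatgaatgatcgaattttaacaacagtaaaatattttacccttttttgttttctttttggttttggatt
kirre intron at the Syx4 promoter, chrX:2743198-2743298: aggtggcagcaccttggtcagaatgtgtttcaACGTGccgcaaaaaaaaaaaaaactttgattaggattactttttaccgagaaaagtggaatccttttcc
Mhc promoter, pooled list only, chr2L:16766603-16766703: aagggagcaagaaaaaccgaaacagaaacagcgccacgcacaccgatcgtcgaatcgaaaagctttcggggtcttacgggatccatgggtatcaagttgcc

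Summit windows of the members were poor in G and C. The GC content of the 101-base windows ran from 21.8% to 54.5% over the 14 peaks with a median of 34.7%, against a median of 32.7% over all peaks past IDR and 42.2% over the arms. The lowest value belonged to the kirre window with the MEF2 site, and the highest to an exonic Mef2 peak. The Mhc window, below the threshold, had 51.5%.

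Of the 11 sequences searched, each was in 0 to 2 of the 14 windows, counts from which nothing is read about the members. ACGTG, the core that Trh and Tango bind, was in 1 of the 14 windows, at the Syx4 promoter inside kirre 16 bp from the summit, against 6.68% of all windows past IDR. The longer TACGTG was in 0 of the 14, against 1.89%. CATATG, an E-box bound by Twist, lay 23 bp from the tin summit and in no other of the 14, against 4.22% of all windows. The MEF2 site, a 10-base consensus, was found in 1 kirre window 35 bp from the summit, against 7.19%. TGTTTAC, a forkhead-type sequence, was in 1 window, that of a Mef2 intron, 11 bp from the summit, against 4.22%. TATAAA was in 2 windows, those of tin and of a kirre peak at the Syx4 promoter, against 22.7%. The other E-box of Twist, CACATG, was in 0 of the 14, against 3.06%. The E-box of Snail, CACCTG, was in 0, against 2.20%. The core of NK-2 type sites such as those of Tinman, CAAGTG, was in 0, against 4.91%. TATCGATA, which the promoter factor DREF binds, was in 0, against 1.94%. The repeat bound by GAGA factor, GAGAG, was in 0, against 9.35%. Each search covered both strands, and CATATG and the MEF2 site can read the same on both. A match is a run of letters and not a bound site, and no match says only that the letters are absent from the window.

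Of the early mesoderm factors, tin held 1 peak, and twi and bap held none. The tin gene (FBgn0004110, dm6, 3R, 21378977 to 21381970, plus strand) is 2.99 kb long with 1 annotated TSS. Its peak (21378584 to 21378983) had its summit at 21378784, 193 bp upstream of that TSS. The signal, a score per peak from the authors' peak caller that is comparable only within its own list, was 115 in the pooled replicates, at rank 1053 of the 2322 past IDR. The score in replicate 1 was 71.7, with a summit 1 bp away, and in replicate 3 it was 38.3, with a summit 29 bp away. The peak thus had a summit in both replicates, at rank 1015 of 28743 and at rank 1479 of 30000. The next TSS was that of mod(mdg4), a chromatin factor gene, 1383 bp away, so the peak is nearer to tin.

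The gene next to tin in the same NK homeobox cluster did not share this peak. The bap gene (FBgn0004862, 3R, 21388880 to 21390449, plus strand) starts 6.91 kb beyond the end of tin, and its nearest summit past IDR was that of tin, 10.1 kb from the bap TSS. In the pooled list, which also holds background, bap had 1 peak in its window, with a signal of 33.5 at rank 11644 of 21025, 2153 bp from the TSS. A second pooled summit, nearest to bap but 2013 bp upstream and so just outside the window, had a signal of 40.1. Within 250 bp the first was matched in replicate 1 alone (signal 20.8) and the second in replicate 3 alone (signal 23.6). The cluster genes lbl, lbe and slou, which act in heart and muscle identity, also held no peak past IDR. Their windows held 5, 0 and 2 pooled peaks, with a highest signal of 41.4 at lbl.

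The twi gene (FBgn0003900, 2R, 22985374 to 23048325, plus strand) spans 63.0 kb in this annotation because 1 of its 3 annotated TSSs lies far upstream of the other 2. None of the 3 had a summit past IDR nearer than 18.0 kb. The window held 10 pooled peaks, the strongest with a signal of 43.1 at rank 6367, in an intron and 2943 bp from the TSS of the nested gene CG9896. The second, with a signal of 35.3, lay 289 bp from the TSS of another nested gene, CG42741, and 3454 bp from the nearest twi TSS. The replicate lists held 10 peaks of replicate 1 and 20 of replicate 3 in the window, with highest signals of 23.2 and 21.9. All of them were below the 2322 strongest of their list.

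Among the myogenic factors Mef2 held 4 peaks past IDR, and nau and lmd held none. The Mef2 gene (FBgn0011656, 2R, 9913496 to 9958858, minus strand) has 3 TSSs over 45.4 kb. The strongest peak of all the members (9959776 to 9960034, summit 9959883) had a signal of 447 and rank 37, but lay outside the gene. It was 1025 bp upstream of the first Mef2 TSS, 151 bp from the TSS of Pdrg1 on the minus strand and 195 bp from a TSS of Pal1, an amidating lyase gene, on the plus strand. The replicates gave it 255 (replicate 1, rank 39) and 190.4 (replicate 3, rank 32). The summit thus lay between start sites of these neighbours, and its score was far above those of the other members' peaks in both replicates.

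The other 3 peaks of Mef2 had its own TSS nearest and lay inside the gene. Those with summits at 9949205 and 9949437, 232 bp apart, were in an intron, 9653 and 9421 bp downstream of the first TSS and 4441 and 4673 bp upstream of an internal one. The first had a pooled signal of 139.7 at rank 700, with 85.1 in replicate 1 and 55.5 in replicate 3. The second had 79.4 at rank 2078 in the pool and 69.6 in replicate 1, and replicate 3 had no separate summit there: the nearest was 226 bp away and is the one counted with the first peak. The intervals of the 2 peaks overlap. The remaining peak (9942764 to 9943163, summit 9942964) was in an exon outside the coding sequence, 1800 bp downstream of the internal TSS, with a signal of 113.8 at rank 1072, 70.3 in replicate 1 and 42.5 in replicate 3. Of the 18 pooled peaks in the window, the strongest that missed the threshold had a signal of 64.9 at rank 2949 in an intron. It scored 32.5 in replicate 3, at rank 1966, and 29.1 in replicate 1, at rank 5734.

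The founder-cell gene nau (FBgn0002922, 3R, 23712814 to 23718357, minus strand) is short, and so is lmd (FBgn0039039, 3R, 23021222 to 23026713, minus strand). Both had only peaks that missed the IDR threshold. At nau the strongest pooled peak, in an intron and nearer to the TSS of CG10300 (2560 bp) than to that of nau (4270 bp), had a signal of 50.4 at rank 4598. Its replicate signals were 27.7 at rank 6356 in replicate 1 and 27.0 at rank 2893 in replicate 3, with a summit 110 bp away. The nearest summit past IDR was 4654 bp upstream, with a signal of 93.5, at 320 bp from the TSS of CG10365. At lmd the strongest pooled peak was 1950 bp upstream of the TSS with a signal of 43.6 at rank 6175, 25.6 in replicate 1 with a summit 99 bp away and just outside the window, and 17.2 in replicate 3. No summit past IDR was nearer to a TSS of lmd than 22.1 kb.

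**Figure D1:**
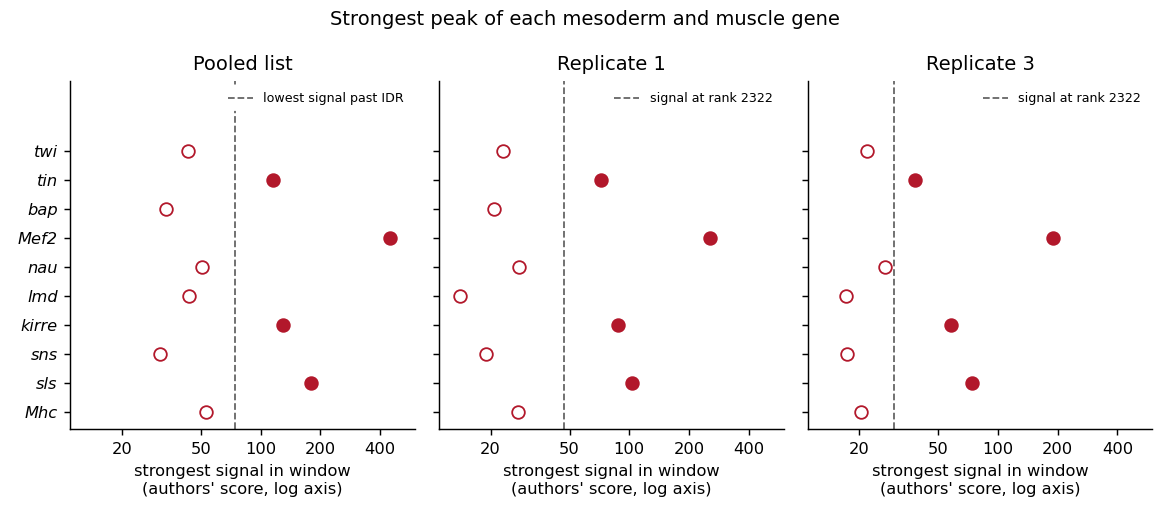
Strongest signal (authors' score, log axis) among the peaks in each member's span and 2000 bp around it, in the pooled list and in each replicate list, with genes in rows. Filled points are the 4 genes with a peak past IDR and open points the others, and the dashed lines stand at the lowest signal past IDR (74.4) and at rank 2322 of each replicate (47.1 and 29.9). The filled points lie to the right of the lines in all 3 panels and the open ones to the left, with nau in replicate 3 nearest to its line at 27.0, and bap has no point in replicate 3.

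The fusion gene kirre held the most peaks, but none of them at its own start sites. It is the longest of the members (FBgn0028369, X, 2740384 to 3134532, plus strand), with 6 TSSs over 394 kb and 21 protein-coding genes nested in its span, among them its paralogue rst. Its 8 peaks came to 20.1 per Mb of the window, close to the 17.3 per Mb of the arms. Within 500 bp of a neighbour's TSS lay 3 of them: the summits at 2744188 (signal 108.0) and 2743248 (88.5) were 112 and 290 bp from TSSs of Syx4, a syntaxin gene that overlaps kirre on the other strand, and that at 3134695 (80.1) was 175 bp upstream of N, the gene of the receptor Notch, which begins just beyond kirre. The summits at 2786779 (129.5) and 2787492 (116.6) lay within CG32795, 2543 and 1830 bp from its TSS, and 46.4 and 47.1 kb from the first TSS of kirre.

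For the other 3 a kirre TSS was the nearest. The summit at 3097213 had a pooled signal of 128.9, at rank 827, and lay in an intron 2337 bp upstream of an internal TSS. Those at 3086059 (88.2, rank 1718) and 2985475 (80.4, rank 2039) were also intronic, 13491 and 3576 bp upstream of internal TSSs. No kirre TSS had a summit past IDR within 500 bp.

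Each replicate list gives the kirre peaks a score of its own. The summit at 3097213 had 70.5 in replicate 1 and 57.1 in replicate 3, and that at 2786779 had 88.1 and 47.0. The peak at 2787492 had 55.7 at rank 1689 in replicate 1 and 58.3 at rank 629 in replicate 3, and that at 2743248 had 60.9 at rank 1418 and 24.6 at rank 3645. The peak at N had rank 2063 in replicate 1, and the nearest summit of replicate 3, at rank 6659, was 128 bp away. The peak at 2985475 had 40.9 at rank 2980 in replicate 1 and 38.5 at rank 1466 in replicate 3. The peak at 3086059 had 59.3 at rank 1489 in replicate 1 and 30.0 at rank 2305 in replicate 3. The peak at 2744188 had 63.7 in replicate 1 and 47.5 in replicate 3. In the pooled list kirre held 76 peaks, and 3 of them, all intronic with a kirre TSS nearest, had 73.9, 73.3 and 72.5, just under the lowest signal past IDR of 74.4.

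The partner gene sns (FBgn0024189, 2R, 8798489 to 8856091, plus strand) had no peak past IDR over 57.6 kb, and the nearest was 74.5 kb from its single TSS. The strongest of its 5 pooled peaks had a signal of 31.2 at rank 13991 of 21025, the lowest such value of the members, and no pooled summit was nearer to the TSS than 16264 bp. No summit was shared between the replicates at these 5 peaks: each was matched within 250 bp in 1 replicate and not in the other.

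**Figure D2:**
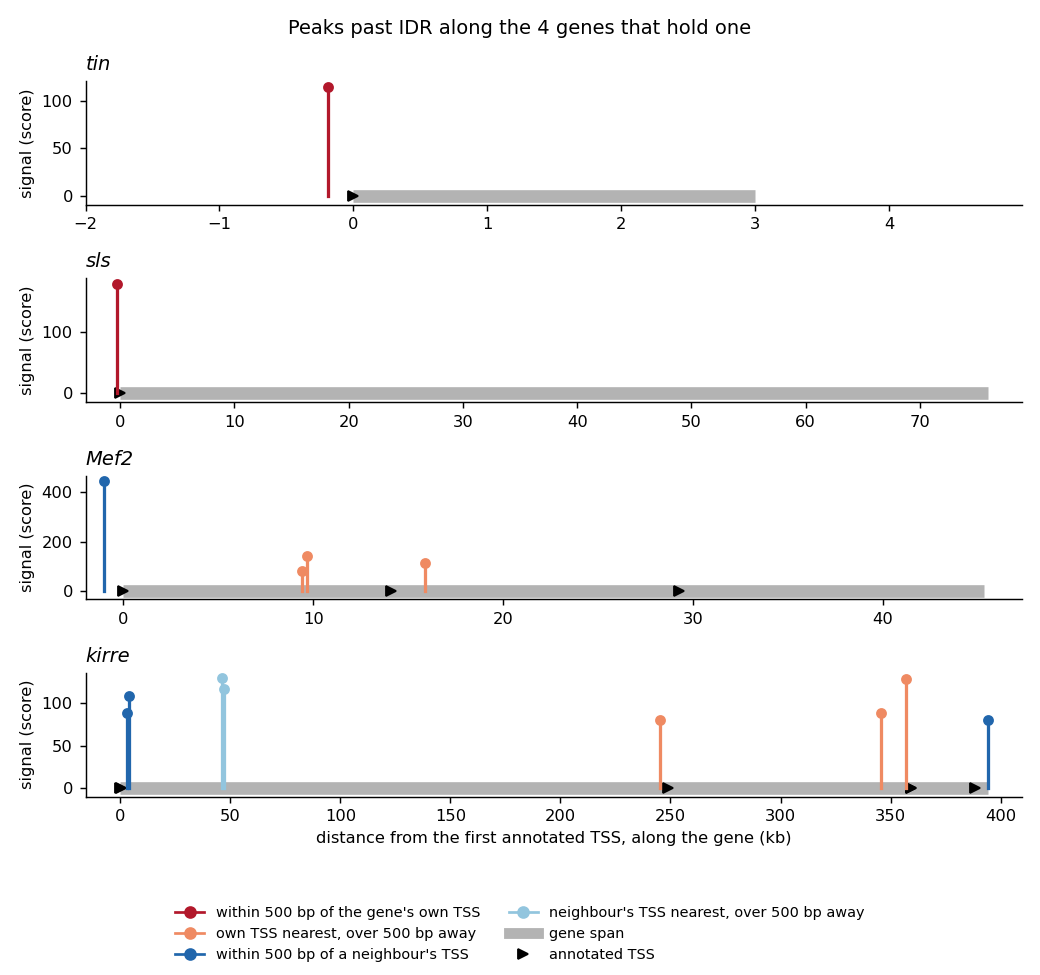
Peaks past IDR along tin, sls, Mef2 and kirre, by distance from the first annotated TSS in kb (x axis, gene direction left to right) and signal (authors' score, y axis). Stems mark summits and are coloured by the nearest coding TSS. The peaks of tin and sls stand within 500 bp of the start, the highest Mef2 peak at 447 stands at a neighbour's TSS, and the 8 kirre peaks are spread over 394 kb.

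Of the sarcomere genes, sls held 1 strong peak at its start and Mhc held none. The sls gene (FBgn0086906, 3L, 2039681 to 2115611, minus strand) has 1 annotated TSS and spans 75.9 kb. Its peak (2115674 to 2116073, summit 2115874) was 263 bp upstream of the TSS, with a signal of 178 and rank 409, the second strongest of the members and the strongest at a member's own TSS. Replicate 1 scored it 102.9 at rank 478 with the same summit, and replicate 3 scored it 74.4 at rank 373, 35 bp away. The other 6 pooled peaks of sls had signals of at most 34.0.

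At Mhc (FBgn0264695, 2L, 16766566 to 16788766, plus strand) a weak peak lay at the promoter. The strongest pooled summit was 81 bp from one of its 5 TSSs, with a signal of 53.0 at rank 4163. Its −log10 q was 1.17, and the lowest of any peak past IDR was 2.80. Replicate 1 gave it 27.4 at rank 6498, and replicate 3 gave 16.6 at rank 11975 with a summit 41 bp away. Another pooled summit, 210 bp from an internal TSS, had a signal of 41.1. The nearest summit past IDR was 45.6 kb from any Mhc TSS.

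Every member had at least 1 peak in the pooled list within its window, against 73.3% of all protein-coding genes. Gene length was not taken into account in this count. Per Mb, the members' windows held 173.7 pooled peaks and the chromosome arms 157.0. A pooled summit within 500 bp of one of their own TSSs was found at 5 of the 10 (tin, Mef2, kirre, sls and Mhc), against 41.0% of all genes. Of the members' 24 TSSs, 9 had such a pooled summit and 2 a summit past IDR. The members without a peak past IDR had highest pooled signals between 31.2 (sns) and 53.0 (Mhc), and the weakest peaks past IDR had 79.4 at Mef2 and 80.1 at kirre, with the lowest of the whole list at 74.4. The strongest peaks of these 6 genes were thus well below the pooled threshold. Their −log10 q values ran from 0.10 (sns) to 1.17 (Mhc), against 2.80 or more past IDR, so they may be background.

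By replicate, the same 4 genes held strong peaks. Among the 2322 strongest peaks of replicate 1, 4 of the 10 members held at least 1, against 22.7% of all genes, and among those of replicate 3 again 4, against 21.5%. In both lists these were tin, Mef2, kirre and sls. Of the 14 members' peaks past IDR, 12 had a summit within 100 bp in both replicates, against 94.2% of all peaks past IDR. The exceptions were the second intronic Mef2 peak and the peak at N, each with a summit within 100 bp in replicate 1 only. Over the 12, the signal in replicate 1 was 0.955 to 2.47 times that in replicate 3 with a median of 1.46, and over all 2187 matched peaks the median was 1.56, with the 5th and 95th percentiles at 0.956 and 2.91. The lists are on scales of their own, and the members' ratios lay within about this range. Among the strongest peaks of replicate 3, 1 at Mef2 and 3 at kirre had no summit past IDR within 100 bp, and in replicate 1 this held for 1 at kirre.

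The members' peaks were of middling strength. Their median signal was 114.4, against 110.1 over all peaks past IDR, and 8 of the 14 were above that value. The −log10 q value reached its ceiling of 3.48 for 9 of the 14, as it did for 64.4% of all peaks past IDR. Of the 14 peaks, 13 were 400 bp wide, the exception being the peak between Pdrg1 and Pal1.

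**Figure D3:**
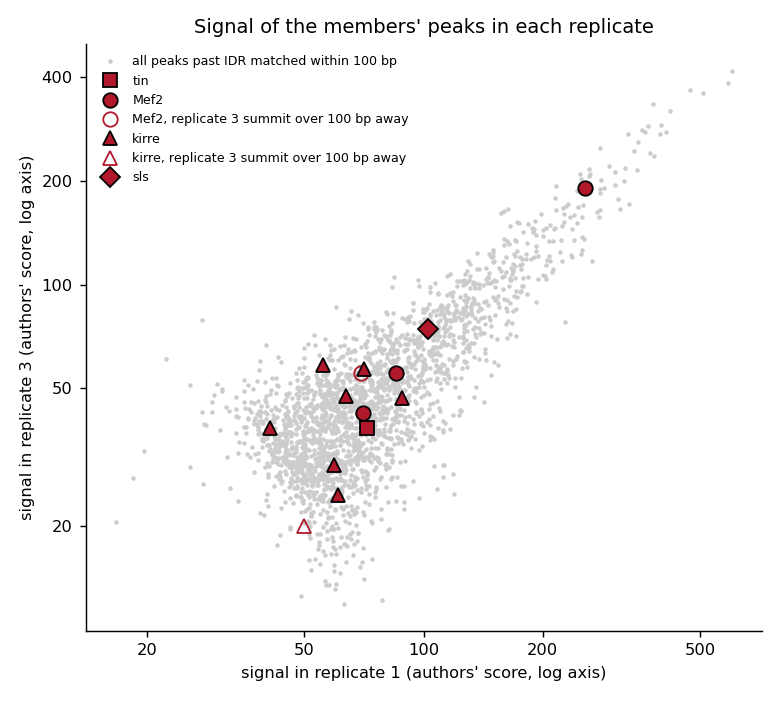
Signal in replicate 1 (x axis) and replicate 3 (y axis), both the authors' scores on log axes, for all 2187 peaks past IDR matched within 100 bp (grey) and for the 14 peaks of tin, Mef2, kirre and sls (red). Open symbols mark the 2 peaks whose nearest replicate 3 summit was over 100 bp away. The Mef2 peak at 255 and 190.4 stands apart from the other 13.

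A wider set of 58 mesoderm and muscle genes outside the 10 members was placed in the same way. A peak past IDR lay in the window of 20 of them (34.5%), against 22.4% of all protein-coding genes. By nearest TSS 19 of the 58 had one (32.8%), against 13.3% of all genes. For 15 of the 20 at least 1 of the peaks had the gene's own TSS nearest. Gene length, by which shares differed above, was not taken into account in these counts. Neither were roles that the listed genes may have in tissues other than mesoderm and muscle, so the shares are not particular to those tissues. The scores given below are pooled, and the strongest peaks of some genes were weaker in 1 replicate. In replicate 1 those of htl (21.5), Dr (31.0), rols (45.2) and Obsc (46.1) were below the signal at rank 2322 (47.1). In replicate 3 this held for if (28.2) and Act87E (27.3), against 29.9.

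Among 6 genes of early mesoderm and FGF signalling, 4 held a peak. These were zfh1, a zinc finger homeodomain factor (142.9, in an intron 1483 bp from its TSS), stumps, the FGF receptor adaptor (128.0, 378 bp), ths, an FGF ligand (125.9, 1509 bp), and htl, the FGF receptor of the mesoderm (94.9, 473 bp). The stumps window held 3 peaks, of which 1, the strongest, had the TSS of stumps nearest. The other ligand, pyr, and sna, the repressor that works beside Twist, held none.

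Of 17 factors for cardiac, visceral and somatic identity, 4 held a peak, and in these windows the gene's own TSS lay nearest at bin and Dr. At bin, a forkhead factor of visceral mesoderm that acts downstream of bap, the summit was 1318 bp upstream of the TSS with a signal of 164.0, while at Dr it was 10753 bp away, beyond the gene's end, with 83.8. The peak at tup (140.7) was 82 bp from the TSS of CG10602 and that at Doc2 (84.9) was 2062 bp from the TSS of CG5194. Both genes also had peaks beyond the window with their own TSS nearest, of 115.6 at 8990 bp for tup, and of 136.8 at 6566 bp and 78.3 at 4548 bp for Doc2. The same held for mid, a T-box gene of the heart (105.2 at 15268 bp), and Doc1 (77.7 at 7021 bp), whose windows held none, so that 6 of the 17 had a peak by nearest TSS. Neither by window nor by nearest TSS was one found for pnr, Doc3, H15, Hand, slou, Kr, eve, ap, lbe, lbl or Him.

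Of 10 further fusion genes, 4 held a peak: mbc, WASp, siz and rols. The strongest, at mbc, which encodes a Rac activator (167.7), was 42 bp from the TSS of a nucleoporin gene and 102 bp from that of mbc itself, and 2 more peaks in the mbc window had its own TSS nearest. WASp, an actin nucleation promoter, had 126.0 at 108 bp from its TSS, and siz, an Arf exchange factor, 103.3 at 2987 bp. At rols, an adaptor of founder cells, 2 peaks had its own TSS nearest, the stronger with 78.8 at 545 bp. The paralogues of kirre and sns, rst and hbs, held none, and neither did blow, sing, Vrp1 and Arf6.

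Of 25 genes of the sarcomere and of muscle attachment, 8 held a peak. Msp300, a nesprin, held 3, the highest 619 bp from a TSS (156.4), and mys, the integrin beta subunit, had 1 at 31 bp (103.0). Tm1, a tropomyosin gene, had 1 at 134 bp (100.3), Zasp52, a Z-disc protein gene, 1 at 13632 bp (109.2), and Act87E, an actin gene, 1 at 2027 bp (84.7). The strongest peaks at the integrin alpha genes mew (146.1) and if (144.1) and at the obscurin gene Obsc (89.5) were nearest to TSSs of CG32639, goe and CG3860. The mew window held 3 peaks, and none had the TSS of mew nearest. The other 17 genes of the list, like Mhc, held none past IDR. They include the thin filament genes up, wupA, Act57B and Tm2 and the myosin light chain genes Mlc1 and Mlc2. The rest are Act88F, TpnC73F, Mf, Prm, bt, Actn, Zasp66, Mlp60A, Mlp84B, kon and drl.

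**Figure D4:**
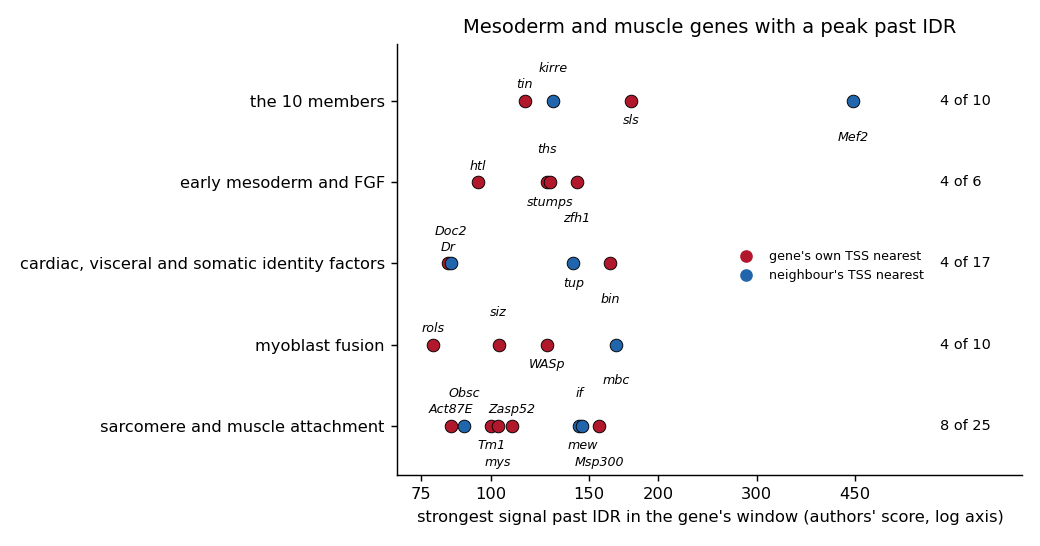
Strongest signal past IDR (authors' score, log axis) in the window of each mesoderm or muscle gene that holds a peak, by list (rows), with the number holding one at the right. Red points have the gene's own TSS nearest and blue points a neighbour's. The members have 4 of 10, and the points at 447 for Mef2 and 129.5 for kirre are each a neighbour's.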

How the data were processed

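Peak lists from 2 ChIP-seq samples of 1 group were used. Per the deposited sample notes, peaks and background were called for each replicate and for the pooled replicates against a control alignment, and a list past IDR was derived. Aligner, peak caller and IDR threshold: not given in the sources used here. The signal of each peak is a score the authors deposited, used within a list only. The −log10 q value of each peak and its summit offset are also as deposited by the authors. No counts are in these lists, so depth is unknown.

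From the 4 dm6 lists, each summit (interval start plus offset, 1-based) was placed on Ensembl BDGP6.54 genes. Sequences came from the RefSeq release 6 genome, whose arm lengths hold all peaks. Summits within a gene's span or 2000 bp around it were counted for that gene. Replicate peaks were matched within 100 bp. The dm3 lists were not used. No test was made, since 1 group gives no comparison. The members and lists were chosen with earlier results of these data known, and the division at 20 kb after seeing the peaks. By rule, the 10 members, the genes with the nearest TSS and the genes with a peak in 4 wider lists are named. The genes of these lists that hold none were added after their values were seen. Of the symbols in those lists, all 58 matched, Obsc and Arf6 by older names. The placement was checked on planted positions. Distances, thresholds and single replicates were varied. Python 3.11.15 and numpy 2.4.6 were used.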

Additional observations from a re-analysis of the deposited data

How the results depend on the processing

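Of 18 alternatives over 4 counts, 15 stayed within 1.5 times the reported value. With no flank around the gene span, 2 members held a peak past IDR, the peaks of tin and sls being upstream of the gene, and in the pooled list, which includes background, 10 did. With the 1161 strongest peaks of the list past IDR, 8 peaks lay in the members' windows in place of 14, a smaller list by construction, and the 4 genes were the same. A flank of 5000 bp gave 5 members, with nau added by a peak at the TSS of CG10365. Without replicate 1 or without replicate 3, the 2322 strongest peaks of the other replicate's own list were used, with no IDR cut. Then 4 members held a peak by span and 4 by nearest TSS, tin, Mef2, kirre and sls in each. In the windows lay 15 and 14 such peaks. Within 2000 bp of a TSS, 3 members had a peak by nearest TSS, and kirre did not. Peaks matched in both replicates numbered 11 within 50 bp and 14 within 250 bp. The count at 250 bp uses the same replicate 3 summit for both intronic Mef2 peaks, 226 bp from the second. No paired analysis was possible because there is 1 group. Read depth is unknown, so no limit of detection can be given for genes without a peak.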
